A study of Mus musculus with 12 samples.

Results

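The growth hormone and IGF axis was followed in 10 genes, namely Ghr, Stat5b, Cish, Socs2, Igf1, Igfals, Igfbp1, Igfbp2, Igfbp3 and Igfbp4, which were taken by name as every probe set whose annotation gives 1 of these symbols and no other. They hold 27 of the 45037 probe sets (groups of short probes for a transcript) and 10 of the 18193 gene symbols on the Affymetrix Mouse Genome 430 2.0 arrays. All 12 arrays come from 12 week old female C57BL/6 mice that lack the ghrelin receptor (GHSR-/-), so saline and treated mice carried the same deletion and no array of a mouse with the receptor was compared. RNA of gonadal white adipose tissue (WAT), M. vastus lateralis muscle and liver was taken 6 h after an intraperitoneal injection of saline or of unacylated ghrelin (UAG) at 20 nmol/kg, the peptide without the acyl group that the receptor needs. Each tissue has 2 saline and 2 UAG arrays, whole pieces of tissue were used, and nothing in the labels says which mouse gave which array, so p-values measure the spread between these arrays only.

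Growth hormone binds its receptor on liver, fat and muscle cells, and the kinase JAK2 then activates the transcription factor STAT5B. STAT5B switches on Igf1, the acid-labile subunit Igfals and the feedback inhibitors Cish and Socs2. IGF-I circulates mostly in a complex of IGFBP3 and the acid-labile subunit, while IGFBP1 is a short-lived binding protein of the liver that insulin represses. In rodents the pulse pattern of growth hormone differs between the sexes and sets which of the sex-biased genes the liver expresses.

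The genes lie on 6 chromosomes of the GRCm38.p6 build. Ghr is at chr15:3317755-3583352, Igf1 at chr10:87858265-87937047, Socs2 at chr10:95383903-95417321, Cish at chr9:107296659-107302784 and Igfals at chr17:24877844-24882011. Chromosome 11 holds Igfbp1 (chr11:7197787-7202546), Igfbp3 (chr11:7206086-7215498), Igfbp4 (chr11:99040005-99052655) and Stat5b (chr11:100780731-100859004), and Igfbp2 is at chr1:72824480-72852474. Igfbp1 and Igfbp3 are neighbours 3.54 kb apart, Igfbp2 and Igfbp5 lie 5.59 kb apart and Stat5b and Stat5a 0.346 kb apart, with 0 protein-coding genes annotated between the genes of each pair.

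Windows from 250 bases before to 50 bases after a transcript start were found in RefSeq's promoter table (GRCm38.p6) for 9 of the 10 genes, 14 windows in all, with none for Socs2. They were searched on both strands for the palindromic STAT5 core TTCNNNGAA and for CAAAACA, the core of the insulin response element bound by FOXO1. The STAT5 core was in 3 of the 14 windows, 2 of Igfals and that of Cish, and in 8.3% of the 32851 windows of the table. CAAAACA was in 1 of the 14 windows, that of Igfbp1, and in 6.28% of all windows. The Cish window holds the STAT5 core 2 times, as do 0.457% of all windows with 2 or more. A match says only that these letters are present, and no binding was measured. The windows of Cish (chr9:107296409-107296708, plus strand), Igfals (chr17:24877981-24878280, plus strand, 1 of its 3 windows) and Igfbp1 (chr11:7197537-7197836, plus strand) are shown 5′ to 3′ because the liver results concern a feedback target of STAT5B, a subunit of the IGF complex and the insulin-regulated binding protein, and capitals mark the matches.
Cish: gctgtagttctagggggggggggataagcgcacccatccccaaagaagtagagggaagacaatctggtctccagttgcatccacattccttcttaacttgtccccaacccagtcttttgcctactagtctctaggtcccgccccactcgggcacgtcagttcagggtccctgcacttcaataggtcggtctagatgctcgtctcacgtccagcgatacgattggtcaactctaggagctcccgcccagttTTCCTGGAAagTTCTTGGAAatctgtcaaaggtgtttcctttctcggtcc
Igfals: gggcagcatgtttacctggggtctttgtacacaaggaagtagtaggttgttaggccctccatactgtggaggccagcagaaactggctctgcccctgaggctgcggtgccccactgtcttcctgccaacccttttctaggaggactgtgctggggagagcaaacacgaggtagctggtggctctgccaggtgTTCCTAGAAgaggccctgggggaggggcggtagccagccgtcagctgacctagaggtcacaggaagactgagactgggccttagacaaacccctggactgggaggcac
Igfbp1: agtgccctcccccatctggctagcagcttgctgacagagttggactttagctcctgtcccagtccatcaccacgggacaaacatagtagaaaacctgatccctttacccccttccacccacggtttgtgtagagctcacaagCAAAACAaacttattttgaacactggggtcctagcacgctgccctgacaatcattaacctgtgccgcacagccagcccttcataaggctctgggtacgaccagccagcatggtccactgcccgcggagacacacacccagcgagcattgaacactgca
In the Cish window the matches begin at bases 251, the annotated start itself, and 262, in the Igfals window the match begins at base 193, and in the Igfbp1 window CAAAACA begins at base 143.

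The arrays were close within a tissue, with Pearson correlations of 0.951 to 0.962 between WAT arrays, 0.938 to 0.951 between muscle arrays and 0.925 to 0.946 between liver arrays over the probe sets. Hepatocyte markers (4 of 5 measured) summed to 53261.5 or more on liver arrays and to 309 or less on the others, and skeletal fibre markers (5 of 5) to 73305 or more on muscle arrays. Some arrays also carried markers of other cells. Adipocyte markers (3 of 5 measured: Adipoq, Lep and Retn) summed to between 11112 and 18984 on muscle arrays, against 22557 to 28611 on WAT arrays. Brown adipocyte markers (5 of 5) summed to 19890 on WAT saline 1 and to 1939 to 4020 on the other WAT arrays. The same sum was 14494 to 22033 on muscle arrays. Skeletal fibre markers were also highest on WAT saline 1, at 3304 against 858 to 1541 on the other WAT arrays. Which cells gave these sums was not tested. Smooth muscle markers (5 of 5) summed to 27767 on WAT saline 2 and to 4672 to 4790 on the other WAT arrays. The single Ghsr probe set was between 3.80 and 26.2 on all 12 arrays, below the study's threshold of 30, and with no wild-type array it checks nothing. Intensities are on the linear scale, and the study put a threshold of 30 on them. Values under 30 were set to 30 for ratios and tests, and a gene with several probe sets is represented by its brightest.

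The levels of the 10 genes were compared between the tissues. In limma's fit to the 12 arrays, with p-values adjusted by the Benjamini-Hochberg method across the whole table, 7 of the 10 genes differed between liver and WAT (6 higher in liver), 7 between liver and muscle (6 higher in liver) and 7 between WAT and muscle (5 higher in WAT). Of all 26530 probe sets tested, 59.2%, 61.5% and 49.9% differed in the same 3 comparisons, so calls between tissues were common across the array and the members' counts say nothing particular to them. Igfbp1, counted in both liver comparisons, passed the filter on low values only through liver. Of the 26 probe sets of the 10 genes that were tested, 19, 19 and 18 differed.

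**Figure D1:**
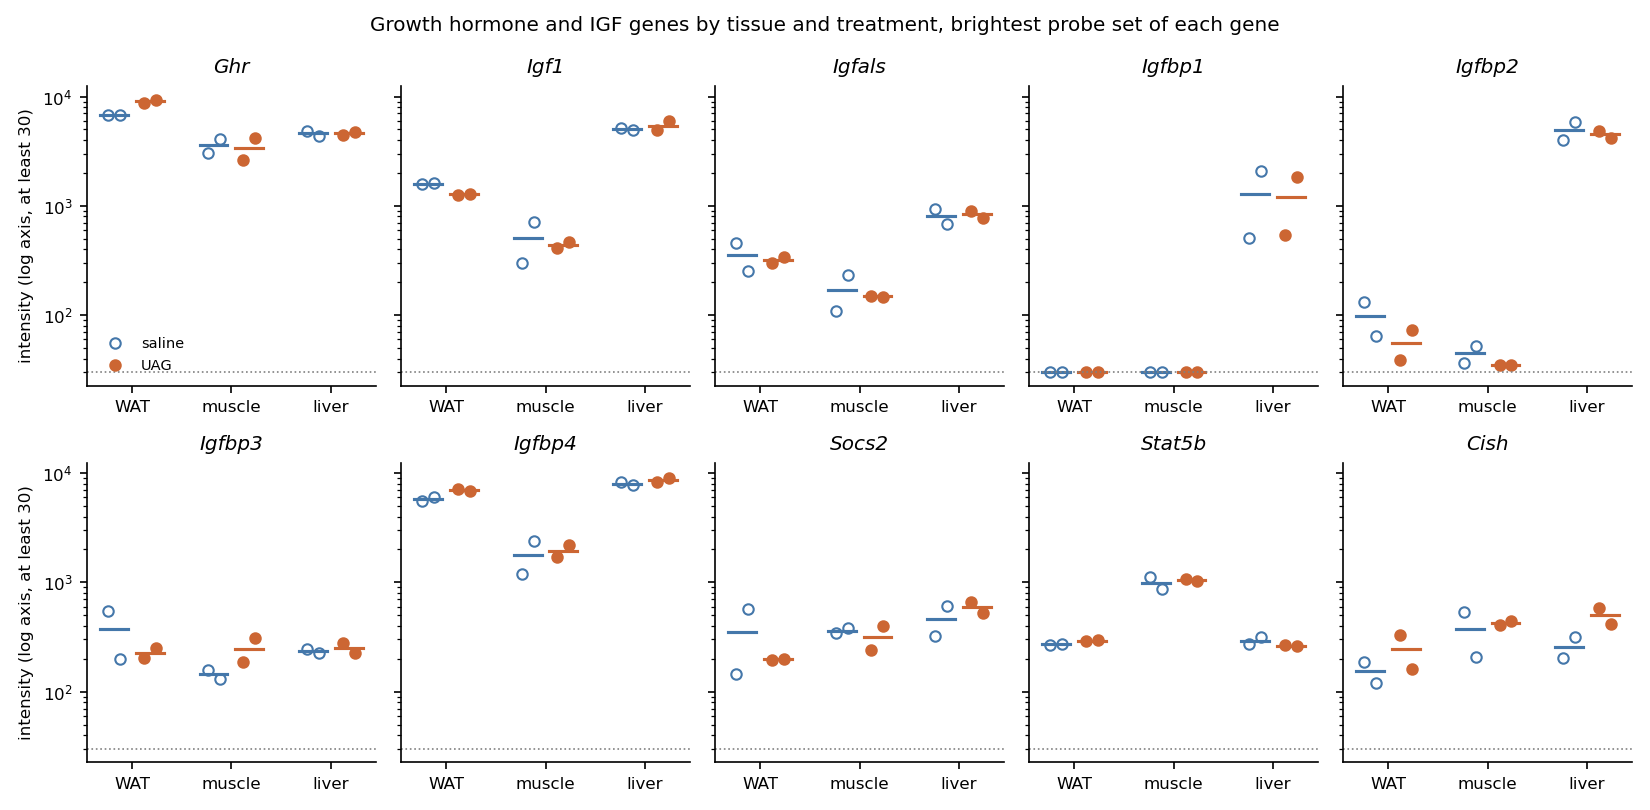
Intensity of the 10 genes on each of the 12 arrays (brightest probe set; log axis; values under 30 set to 30, dotted line), with open circles for saline, filled circles for UAG and a bar at the mean of each pair of arrays. Igfbp1 and Igfbp2 are highest in liver, Stat5b in muscle and Ghr in WAT, while saline and UAG arrays lie close together in most panels.

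Ghr, the growth hormone receptor, was highest in WAT. Its intensity was 6745 and 6765 on saline and 8684 and 9373 on UAG arrays of WAT, 4883 and 4395 on saline and 4430 and 4764 on UAG arrays of liver, and 3047 and 4132 on saline and 2610 and 4172 on UAG arrays of muscle. The WAT arrays were all above the liver arrays, and the liver arrays above the muscle arrays. Liver was lower than WAT by a log2 difference of -0.76 (SE 0.15, limma adjusted p = 0.0015) and higher than muscle by 0.43 (SE 0.15, adjusted p = 0.0316). All 3 Ghr probe sets gave the same order of the tissues.

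Stat5b, the transcription factor downstream of the receptor, was higher in muscle than in WAT or liver. It was 1114 and 866 on saline and 1076 and 1024 on UAG arrays there, against 270, 271, 290 and 296 in WAT and 272, 313, 268 and 261 in liver. Muscle stood apart from both tissues, which overlapped each other. Muscle was 3.61-fold above WAT (log2 WAT minus muscle -1.85, SE 0.10, limma adjusted p = 2.05e-07) and 3.66-fold above liver, and the dimmer probe set gave 4.25-fold and 2.96-fold. WAT and liver did not pass the test on the brightest probe set (log2 difference -0.02, SE 0.10, adjusted p = 0.896), while the dimmer one was 1.44-fold higher in liver (adjusted p = 0.0282).

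Igf1, the growth factor itself, followed the order liver, WAT, muscle. Its brightest probe set was 5149 and 4897 on saline and 4936 and 5929 on UAG arrays of liver, 1591 and 1603 on saline and 1258 and 1297 on UAG arrays of WAT, and 301 and 711 on saline and 415 and 471 on UAG arrays of muscle. The 3 tissues did not overlap. All 4 Igf1 probe sets put liver above WAT and WAT above muscle, but by different amounts: liver was 1.35- to 3.65-fold above WAT and 4.40- to 11.5-fold above muscle, and WAT 2.76- to 3.26-fold above muscle. Igfals, the acid-labile subunit of the circulating IGF complex, had the same order, with 943, 681, 891 and 780 in liver, 457, 256, 302 and 343 in WAT and 109, 233, 151 and 145 in muscle. It was 2.46-fold higher in liver than in WAT (limma adjusted p = 0.00081) and 5.32-fold higher than in muscle (adjusted p = 6.28e-06).

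Igfbp1 and Igfbp2 were the members most restricted to liver. Igfbp1, the insulin-repressed binding protein, lay between 505 and 2065 on the 4 liver arrays and between 2.24 and 4.69, below 30, on each of the 8 other arrays, so it was at least 33.7-fold higher in liver. No test is given for this difference, since Igfbp1 passed the filter on low values only through liver and was set to 30 on all 8 other arrays. Igfbp2, a binding protein made by liver cells, was 4020, 5829, 4805 and 4201 in liver, 133, 64.2, 39.0 and 73.3 in WAT and 36.6, 52.6, 35 and 35 in muscle. It was 66.4-fold higher in liver than in WAT and 119-fold higher than in muscle, where its values were just above 30. The neighbour of each had another distribution. Igfbp3, the main carrier of IGF-I in blood, lay between 131 and 546 on all 12 arrays without a called difference between tissues (smallest limma adjusted p = 0.127, WAT against muscle), and Igfbp5, next to Igfbp2, was 86.2 to 220 in liver and 1235 to 2256 in WAT and muscle.

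Igfbp4, a binding protein that restrains IGF action in tissues, was high in liver and WAT and lower in muscle. Its brightest probe set was 8235, 7707, 8240 and 8922 in liver, 5527, 5999, 7110 and 6811 in WAT and 1186, 2368, 1715 and 2181 in muscle. Liver and WAT did not overlap but missed the threshold on this probe set (log2 difference 0.38, SE 0.19, limma adjusted p = 0.0972), while the other 5 probe sets were called, at 1.5- to 2.47-fold. The levels of the feedback genes overlapped between tissues. Socs2, which ends growth hormone signalling, was 2.16-fold higher in liver than in WAT (adjusted p = 0.0219) with overlapping arrays, and Cish, another STAT5-induced inhibitor, was lower in WAT than in liver (1.90-fold, adjusted p = 0.0257) and in muscle (2.02-fold, adjusted p = 0.0195), also with overlap. From saline arrays alone, 3 genes instead of 7 differed between liver and WAT and 4 instead of 7 between WAT and muscle.

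None of the 10 genes passed the limma test for UAG against saline in any tissue. Of 25307, 25105 and 25160 probe sets tested in WAT, muscle and liver, 0, 0 and 1 were called (0%, 0% and 0.00397%), and 1723, 468 and 919 had an unadjusted p under 0.05. In each tissue 25 of the 27 probe sets of the members were bright enough to be tested. Of these, 4 had an unadjusted p under 0.05 for WAT, 1 for muscle and 1 for liver, and the smallest adjusted p-values were 0.567, 1.00 and 1.00. By the study's rule of a ratio of means of at least 2 or at most 0.5, 0 of the 10 genes passed on the brightest probe set in any tissue, against 1.97%, 0.53% and 0.771% of all probe sets tested. A single dimmer probe set passed, Socs2 in WAT (ratio 0.482), where 1 saline array was high.

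**Figure D2:**
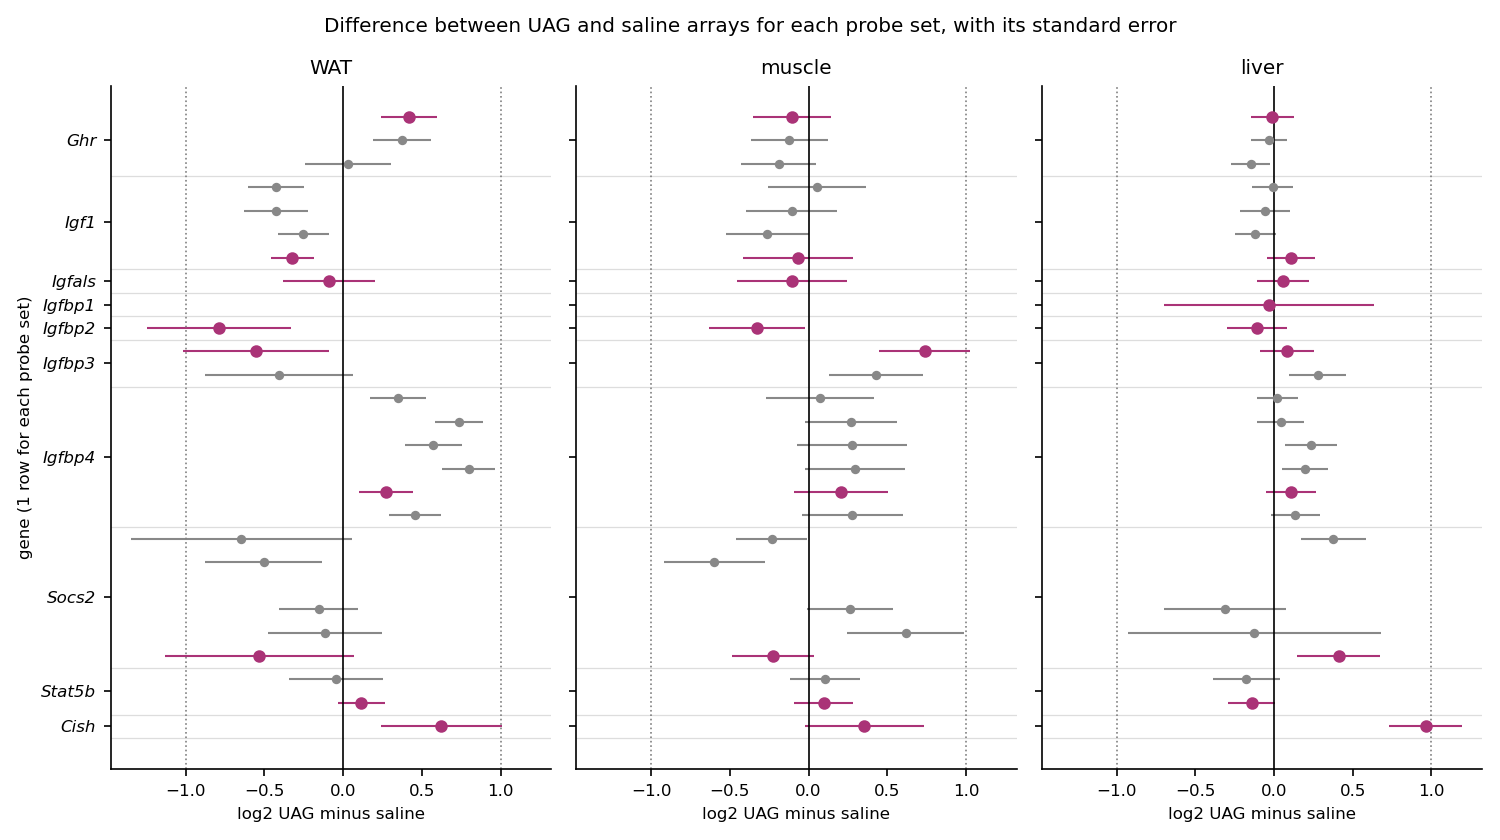
log2 difference of UAG minus saline arrays (points) with limma's standard error (bars) for each tested probe set of the 10 genes in WAT, muscle and liver; larger points are the brightest probe set of a gene and dotted lines mark 2-fold. All 6 Igfbp4 probe sets lie to the right of 0 and all 4 Igf1 probe sets to the left of 0 in WAT, and Cish lies nearest to 2-fold in liver.

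WAT held the most probe sets whose saline and UAG arrays did not overlap, 13 of 25 (52%; 9 higher and 4 lower on UAG arrays), in a tissue where 37.3% of all probe sets tested did not overlap. Igfbp4 made up 6 of the 9. On its 6 probe sets the UAG arrays were all above the saline arrays, at ratios of 1.21 to 1.73. The adipocyte markers were also higher on both UAG arrays of WAT, with sums of 25652 and 22557 on saline and 25854 and 28611 on UAG arrays, and their part in the values of Igfbp4 and Ghr was not tested. The probe set with the smallest p was 1512 and 1700 on saline and 2588 and 2754 on UAG arrays (log2 difference 0.74, SE 0.15, limma adjusted p = 0.567), and the brightest was 5527 and 5999 on saline and 7110 and 6811 on UAG arrays (0.27, SE 0.17). These probe sets read 1 gene and are not separate evidence. Ghr was higher on both UAG arrays in 2 of its 3 probe sets, by 1.34 and 1.30 times, while the third overlapped (2011 and 1678 on saline, 1451 and 2431 on UAG). Stat5b was higher on the UAG arrays by 1.08 times on its brightest probe set and overlapped on the other.

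Igf1 went the other way in WAT. All 4 of its probe sets were lower on both UAG arrays, at ratios of 0.735 to 0.836, with 1591 and 1603 on saline and 1258 and 1297 on UAG arrays for the brightest (log2 difference -0.32, SE 0.14, limma adjusted p = 0.751). Leaving out any 1 array kept the difference between -0.34 and -0.30. On all 4 probe sets saline 2, the array with the smooth muscle markers, was the higher of the saline arrays. The gap was small on the brightest (1603 against 1591) and widest on another (2579 against 1845). The part of smooth muscle cells was not tested. Macrophage and leukocyte markers (5 of 6 measured) were lower on both UAG arrays as well, with sums of 5375 and 5731 on saline and 5186 and 5224 on UAG arrays, and their part was not tested either. Fewer cells of a type and less RNA per cell cannot be told apart in whole tissue.

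Socs2, Igfbp3, Igfbp2 and Igfals were highest on 1 saline array of WAT. Socs2 was 144 and 564 on saline and 194 and 200 on UAG arrays, high on the array with the smooth muscle markers. Igfbp3 was 546 and 199 on saline and 203 and 248 on UAG arrays. Igfbp2 was 133 and 64.2 against 39.0 and 73.3, and Igfals 457 and 256 against 302 and 343. Each was highest on saline 1, the array with the high brown adipocyte and skeletal fibre marker sums. The part of those cells in these values was not tested. The log2 difference of Socs2 was -0.53 over 4 arrays, 0.46 without saline 2 and -1.52 without saline 1, and that of Igfbp3 was -0.55, 0.17 without saline 1 and -1.28 without saline 2, so in both a single array set the direction. Cish was 185 and 121 on saline and 327 and 163 on UAG arrays (log2 difference 0.62, SE 0.39, limma adjusted p = 0.809), with overlap.

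**Figure D3:**
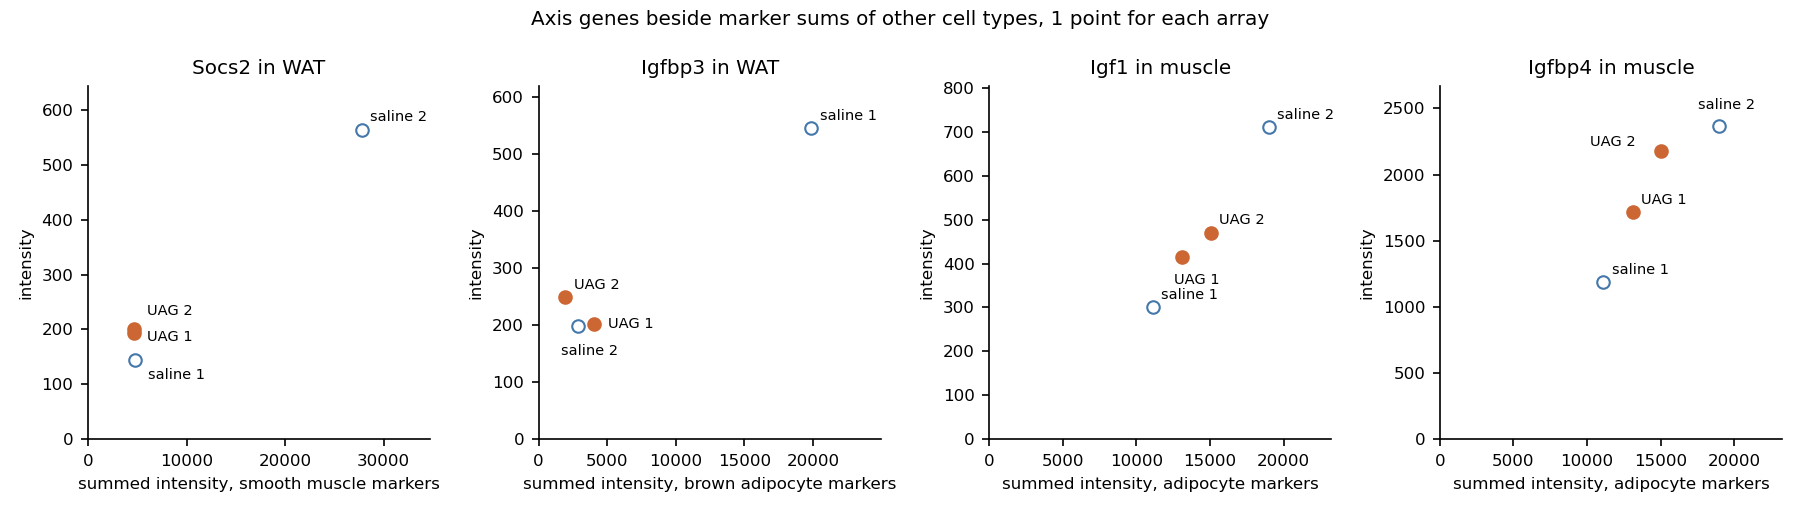
Intensity of Socs2 and Igfbp3 in WAT and of Igf1 and Igfbp4 in muscle (linear axes from 0) against the summed intensity of marker genes of another cell type, 1 point for each array, open for saline and filled for UAG. WAT saline 2 (564 for Socs2) and WAT saline 1 (546 for Igfbp3) stand apart on both axes, and in muscle Igf1 and Igfbp4 have the same order of arrays as the adipocyte markers. The mesothelial and epithelial markers, not drawn, share that order.

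In muscle, Igf1 and Igfbp4 differed more between the saline arrays than between the treatments. Igf1 was 301 and 711 on saline and 415 and 471 on UAG arrays, and Igfbp4 1186 and 2368 on saline and 1715 and 2181 on UAG arrays. Both were lowest on saline 1 and highest on saline 2. The adipocyte markers had the same order, with 11112 and 18984 on saline and 13096 and 15044 on UAG arrays, and this order held for 4 of 4 Igf1, 4 of 6 Igfbp4 and 1 of 3 Ghr probe sets and for 7.29% of all probe sets tested in muscle. It held for 0 of 5 Socs2, 0 of 2 Igfbp3 and 0 of 2 Stat5b probe sets and for 0 of 1 each of Igfals, Igfbp2 and Cish. Mesothelial and epithelial markers (5 of 5) summed to 1745 on saline 2 and to 486 or less on the other muscle arrays. This comparison was made after the values had been seen, and the part of these cells in the muscle values was not tested. Without saline 1 the log2 difference of Igf1 was -0.69, and without saline 2 it was 0.55.

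Igfbp3 was the member with the largest difference in muscle. It was 159 and 131 on saline and 188 and 308 on UAG arrays, higher on both UAG arrays (ratio 1.71, log2 difference 0.74, SE 0.29, limma adjusted p = 1.00). Its other probe set overlapped, with 202 and 168 on saline and 186 and 330 on UAG arrays, and without UAG 2 the log2 difference was 0.38. Ghr (3047 and 4132 on saline, 2610 and 4172 on UAG), Stat5b (1114 and 866, 1076 and 1024) and Cish (533 and 207, 405 and 446) overlapped. Of the 25 probe sets tested, 5 (20%) did not overlap between the treatments, against 22.7% of all.

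In liver, Cish had the largest difference of all members in any tissue. It was 203 and 314 on saline and 583 and 416 on UAG arrays, so both UAG arrays were above both saline arrays (ratio 1.93, log2 difference 0.96, SE 0.23, limma adjusted p = 1.00). The difference stayed between 0.65 and 1.28 when any 1 array was left out, and was smallest without saline 1. The 3′/5′ ratio of the Actb control probe sets, a measure of RNA integrity, was 1.70 and 1.78 on saline and 1.94 and 2.35 on UAG arrays of liver. That of the Gapdh control probe sets overlapped, with 0.714 and 0.668 on saline and 0.723 and 0.695 on UAG arrays. The part of RNA integrity was not tested. Socs2, the other feedback gene, was 324 and 607 on saline and 667 and 521 on UAG arrays and overlapped (log2 difference 0.41, SE 0.26, limma adjusted p = 1.00), and without saline 1 its difference was -0.04. Of the 25 probe sets tested, 7 (28%) did not overlap between the treatments in liver, against 30.5% of all, and 4 of the 7 were Igfbp4 probe sets at ratios of 1.08 to 1.18.

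The liver array labelled saline 1, which was lowest for Cish and Socs2, also stood apart in genes that growth hormone regulates by sex. Of the male-biased genes, 8 of 10 tested were highest on it, as were 27.6% of all probe sets tested, and 6 of the 9 female-biased genes tested were lowest on it, as were 26.4% of all. Hsd3b5, a male-biased steroid dehydrogenase, was 443 on it and 24.2 or less on the other liver arrays. Cyp4a12a, a male-biased fatty acid hydroxylase, was 209 on it and 38.9 or less on the others, and Slco1a1, a male-biased organic anion transporter, 1638 against 326 to 750. Hsd3b5 and Cyp4a12a passed the filter on low values only through this array, so they had to be among the 8. Sult3a1, a female-biased sulfotransferase, was 482 on it and 1396 to 3319 on the others. All 4 liver arrays had Xist, the transcript of the inactive X chromosome, between 1861 and 1977. These counts were made after the values had been seen, the closely related Cyp and Mup genes can share probes, and the part of this array in the difference of Cish was not tested beyond leaving it out.

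**Figure D4:**
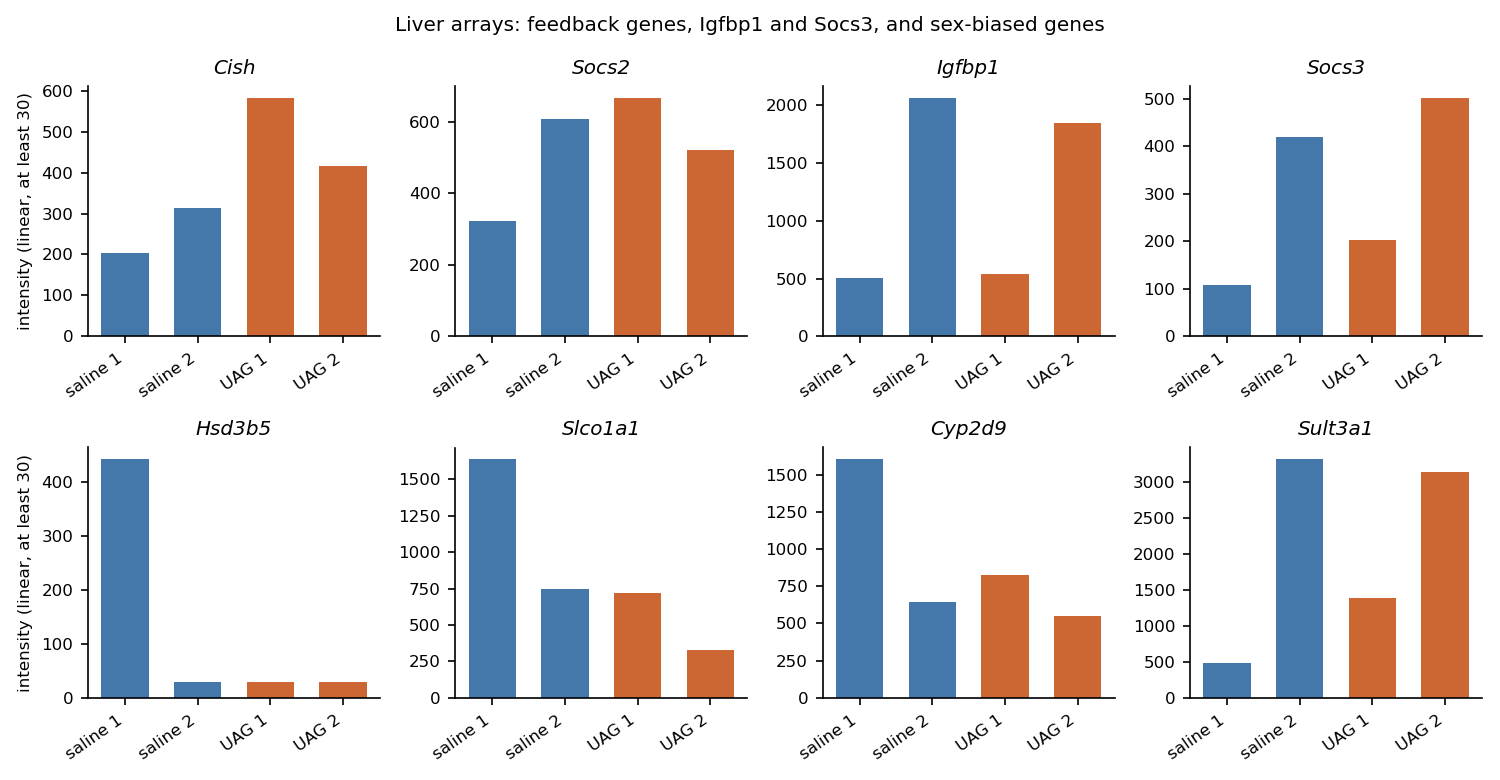
Intensity (linear axis from 0, values under 30 set to 30) of Cish, Socs2, Igfbp1, Socs3 and 4 sex-biased genes on the 4 liver arrays, with blue bars for saline and orange bars for UAG. Saline 1 is lowest for Cish (203), Socs2 and Sult3a1 and highest for Hsd3b5 (443), Slco1a1 and Cyp2d9, and Igfbp1 and Socs3 are high on saline 2 and UAG 2.

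Igfbp1 had the widest range among the liver arrays of the brightest probe sets of the 10 genes, and the range lay within each treatment. It was 505 and 2065 on saline and 541 and 1845 on UAG arrays, so 1 array of each treatment was high (log2 difference -0.03, SE 0.67, limma adjusted p = 1.00). Socs3, a cytokine-induced inhibitor of receptor signalling, was high on the same arrays, at 107 and 420 on saline and 203 and 502 on UAG arrays. The genes nearest to Igfbp1 in their deviations from the tissue means were A2ml1 (Pearson r = 0.99), Lect2 (0.986) and Tbx20 (0.985) over the 12 arrays, a likeness that rests on the 4 liver arrays, since Igfbp1 was set to 30 on the 8 others. Of the insulin and FOXO1 regulated genes, Pck1, the rate-limiting enzyme of gluconeogenesis, was 6767 and 9214 on saline and 9104 and 9549 on UAG arrays of liver, and G6pc, the last enzyme of glucose release, 2160 and 2442 on saline and 1856 and 3137 on UAG arrays.

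The other liver members lay close together. Igf1 had a ratio of 1.08 (log2 difference 0.11, SE 0.15), Igfals of 1.03, Igfbp2 of 0.914, Igfbp3 of 1.07, Igfbp4 of 1.08 and Ghr of 0.991 on their brightest probe sets. Stat5b was 272 and 313 on saline and 268 and 261 on UAG arrays, lower on both UAG arrays by a ratio of 0.904 (log2 difference -0.14, SE 0.15, limma adjusted p = 1.00). Its other probe set overlapped between the treatments (ratio 0.889).

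The genes of the axis beyond the 10 gave 0 limma calls in any tissue. Among the IGF ligand, receptors and substrates (10 genes; 10, 10 and 8 tested in WAT, muscle and liver), 0 passed the 2-fold rule. Irs1, a docking protein of the insulin and IGF-I receptors, was 1967 and 1816 on saline and 1400 and 1010 on UAG arrays of muscle (ratio 0.637, limma adjusted p = 1.00), and Irs2, its relative, 62.7 and 89.7 on saline and 119 and 117 on UAG arrays of WAT (ratio 1.55, adjusted p = 0.730). Neither overlapped between the treatments. The median log2 difference of this list was 0.04, -0.07 and 0.02 in WAT, muscle and liver, beside 0.012, -0.0020 and 0.0011 over all probe sets tested.

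Among the other IGF binding proteins and their proteases (8 genes, with 7, 6 and 4 tested), 1 passed the 2-fold rule, in WAT, where 1.97% of all probe sets tested passed. Stc2, a stanniocalcin that inhibits the IGFBP4-cleaving protease PAPP-A, was 80.3 and 59.1 on saline and 152 and 154 on UAG arrays of WAT (ratio 2.19, log2 difference 1.15, SE 0.23, limma adjusted p = 0.566). It was 137 and 140 on saline and 97.2 and 198 on UAG arrays of muscle, with overlap. Pappa, the protease, was 16.6 and 61.5 on saline and 25.9 and 16.9 on UAG arrays of WAT. The list's median was 0.02, 0.01 and 0.22.

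Of the growth hormone receptor signalling genes (10 of 12 named on the array, 9 tested in each tissue), Socs3 alone passed the 2-fold rule, in WAT, where 1.97% of all probe sets tested passed. Its mean was lower on the UAG arrays, with 116 and 316 on saline and 120 and 90.8 on UAG arrays. Its high array was that with the smooth muscle markers, as for Socs2. Jak2, the kinase of the receptor, was 248 and 300 on saline and 260 and 279 on UAG arrays of WAT, with overlap. The list's median log2 difference was -0.02, 0.01 and 0.07 in WAT, muscle and liver.

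Of the sex-biased liver genes, Hao2 and Cyp3a16 among the 9 female-biased genes tested and Hsd3b5, Cyp4a12a and Slco1a1 among the 10 male-biased genes tested were past the 2-fold rule in liver. Of all probe sets tested in liver, 0.771% were past it. Hao2, a hydroxyacid oxidase, was 80.3 and 183 on saline and 237 and 350 on UAG arrays (ratio 2.23, limma adjusted p = 1.00). Slco1a1 was lower on both UAG arrays (ratio 0.438, adjusted p = 1.00). Saline 1 was the highest liver array for Slco1a1 and the lowest for Hao2, so both ratios lean on that array, and neither gene was retested without it. Cyp3a16, 148 on UAG 2 and below 30 on the other liver arrays, passed the filter on low values only through that array, and Hsd3b5 and Cyp4a12a only through saline 1, which fixed their direction, so the counts of these lists are no support for one. In WAT, Acot3 among the 3 female-biased genes tested and Elovl3 and Cyp7b1 among the 6 male-biased genes tested passed the 2-fold rule. Each had a lower mean on UAG arrays, and 1.97% of all probe sets tested in WAT passed the rule. Elovl3, which is also a brown adipocyte marker, was 1125 on saline 1 and 99.8 to 240 on the other WAT arrays. Of the insulin and FOXO1 regulated genes (7 of 8 named, with 6, 6 and 7 tested in WAT, muscle and liver), Ppargc1a passed the rule in WAT, where it was 120 and 46.7 on saline and 32.8 and 50.2 on UAG arrays, and 0 passed in muscle and liver. Ppargc1a overlapped between the treatments in WAT, and its high array was saline 1, as for Elovl3.

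The effect of UAG did not pass the test of a difference between tissues for any of the 10 genes. In limma's fit to the 12 arrays, 0 of 26530 probe sets were called for liver minus WAT (0%), 0 for liver minus muscle (0%) and 1 for WAT minus muscle (0.00377%), and the smallest adjusted p of the members was 1.00. The only brightest probe set with an unadjusted p under 0.05 was that of Igfbp3, whose effect was lower in WAT than in muscle by a log2 difference of -1.29 (SE 0.55, limma adjusted p = 1.00). The tissues were taken as independent, although they may come from the same mice.

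Likeness to other genes was measured over 12594 genes as Pearson's r across the 12 arrays, a description in which 3 tissues make most of the spread. The genes most like Igf1 in level were Pgrmc1 (0.996), Acaa1b (0.995) and Fads1 (0.995), and those most like Stat5b were Lbx1, Clcn1 and Tmem52 (each 0.997). Clcn1 is the chloride channel of skeletal muscle and Lbx1 a transcription factor of muscle precursors. Igfbp2 was most like Tfr2 (0.996), a transferrin receptor of hepatocytes. Igfbp3 had no close match (highest 0.743). With the tissue means removed, the gene most like Cish was Dsn1 (0.932), that most like Ghr Gimap3 (0.96) and that most like Igf1 Dpyd (0.983). Each is the largest r among 12594 genes over only 12 arrays, so high values can arise by chance.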

How the data were processed

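RNA from 3 tissues of GHSR-/- mice was measured on 12 Affymetrix arrays. The deposited values are log2 intensities that the authors had normalized. MAS5, with no version, is among the submitters' processing tools, and per the methods the arrays were quantile normalized, with a threshold of 30 on the intensity and regulated genes taken at a ratio of at least 2 or at most 0.5. No source gives the log base, and 2 was taken because it puts the brightest value at 25724, whereas base e would put it at 2305490. The sorted values agreed within 0.05 log2 between arrays at 97.7% of positions, and values under 30 were still present. Replicates are separate samples by their labels, and depth does not apply to arrays, whose number limits the precision.

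From there, values were returned to intensity, values under 30 were set to 30, and 64 controls were dropped. Of the 45037 others, the platform annotation gives 1 symbol to 34945, several to 932 and none to 9160. limma 3.58.1 in R 4.3.3 (lmFit, eBayes with an intensity trend, two-sided, Benjamini-Hochberg over all probe sets tested, threshold 0.05) was fitted to the 4 arrays of a tissue, over probe sets whose mean on them was at least 30. The 12 arrays in a single fit gave tissue levels and differences of effects. Ratios are of arithmetic means on the intensity scale, and log2 differences are of log2 intensities. The members, gene lists and tests were chosen with earlier results of these data known. Named genes are the 10 members, the list members past limma or the 2-fold rule or otherwise among the 3 with the largest log2 difference in a tissue, and the 3 most like genes by Pearson's r; not every gene this rule gives is described, and Pappa, Jak2, G6pc, Sult3a1 and Cyp2d9 were named after their values were seen. The limma step was tested on simulated data, where it called 25%, 33% and 55% of 2-fold shifts in WAT, muscle and liver. It called 96%, 95% and 90% of 4-fold shifts, with 17, 9 and 5 false calls. Many probe sets were shifted together in the simulation, which makes the adjusted threshold easier to pass. A member that differs alone could be called less often than these shares. A member without a call can therefore still differ by 2-fold. Some genes of the lists have no single symbol in the annotation and were not analysed here. Gene roles are general knowledge.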

Additional observations from a re-analysis of the deposited data

Results flagged for a closer look

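Stat5b was flagged because its brightest probe set was higher on both UAG arrays than on both saline arrays in WAT (270 and 271 on saline, 290 and 296 on UAG) and lower on both in liver (272 and 313 on saline, 268 and 261 on UAG). Its other probe set overlapped between the treatments in both tissues, with ratios of 0.953 in WAT and 0.889 in liver. Of all probe sets tested, 37.3% in WAT and 30.5% in liver did not overlap. On the brightest probe set the effect in liver minus that in WAT was -0.26 on the log2 scale (SE 0.21). This difference did not pass its own test in limma's fit to the 12 arrays (adjusted p = 1.00).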

How the results depend on the processing

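With 2 arrays a group, leaving out 1 array turned the direction of several small differences. The number of members called by limma for UAG against saline stayed 0 in every tissue under all alternatives (another or no floor, no filter, no trend, 12 arrays in a single fit, other scalings, all probe sets of a gene averaged, each array left out, the replicate block). Over all probe sets the calls in WAT, muscle and liver, 0, 0 and 1 as reported, became 6, 4 and 2 with a floor of 100, 9, 11 and 0 with no filter, 14, 0 and 3 with 12 arrays in a single fit and 3, 5 and 0 with probe sets averaged by gene; the cause was not tested. Same-numbered arrays deviated from their group means with correlations of -0.176, 0.177 and -0.03 over all probe sets. Each rests on 1 difference per treatment, so it cannot decide whether the numbers pair the arrays. With the replicate number as a block, 22, 0 and 17 probe sets were called in WAT, muscle and liver and 0 members, and 7 members still differed between each pair of tissues. A crossed pairing in WAT, added after seeing the data, called 0 probe sets.

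By the 2-fold rule, 0 to 2 members passed in WAT when 1 array was left out (Socs2 and Cish without saline 1, Igfbp2 and Igfbp3 without saline 2, Igfbp2 and Cish without UAG 2), 0 to 1 in muscle (Cish without saline 1, Igfbp3 without UAG 1) and 0 to 2 in liver (Igfbp1 and Cish without saline 2 or without UAG 2). On saline arrays alone, 3 members differed between liver and WAT and 4 between WAT and muscle, with fewer arrays in the comparison.

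Of 373 recomputed UAG differences of single members, 348 kept their direction and 25 reversed, nearly all with 1 array left out. Over those arrays the log2 difference ranged in WAT from -0.51 to 0.33 for Igfals, -1.28 to 0.17 for Igfbp3 and -1.52 to 0.46 for Socs2. In muscle it ranged from -0.44 to 0.23 for Ghr, -0.69 to 0.55 for Igf1, -0.65 to 0.45 for Igfals, -0.29 to 0.71 for Igfbp4, -0.58 to 0.13 for Socs2, -0.085 to 0.28 for Stat5b and -0.33 to 1.03 for Cish. In liver it ranged from -0.088 to 0.064 for Ghr, -0.025 to 0.24 for Igf1, -0.18 to 0.29 for Igfals, -1.05 to 0.98 for Igfbp1, -0.38 to 0.16 for Igfbp2, -0.080 to 0.25 for Igfbp3 and -0.041 to 0.87 for Socs2. Igf1 in liver was -0.019 with all probe sets averaged, and Igfbp4 in liver -0.030 after quantile normalization over the 12 arrays.

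Of 464 recomputed tissue differences, 414 were the same, 37 no longer passed, 4 newly passed and 9 reversed. The reversed ones were between -0.52 and 0.20 (Igfbp3, liver minus WAT), -0.070 and 0.033 (Stat5b, liver minus WAT) and -0.43 and 0.25 (Cish, liver minus muscle) with 1 array left out. On UAG arrays alone they were 0.16 (Igfbp3, liver minus WAT), -0.10 (Igfbp3, WAT minus muscle) and 0.21 (Cish, liver minus muscle), and on saline arrays alone 0.11 (Stat5b, liver minus WAT).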
